A study of Mus musculus with 33 samples.

Results

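The genes Gbp2, Gbp3 and Gbp5 encode guanylate-binding proteins (GBPs) and were chosen by name, as the 3 members of this family among the 773 mouse genes measured. Their RNA was counted with nCounter, which hybridizes fluorescent barcodes to RNA molecules and counts them without amplification, in 33 right-lung samples of 9 groups. The genotype was CCSP-rtTA/(teto)7Sftpb/Sftpb-/- on FVB/N in all 33 samples, so the controls carried the same alleles as the treated animals. Surfactant protein B (SP-B), a lipid-binding protein of the air spaces, is missing from its own locus in these mice. Doxycycline turns on a replacement transgene in the lung cells in which the CCSP promoter construct is active. No group has a lung with an intact Sftpb gene. In the first experiment 24 lungs were taken at day 97, with 2 female and 2 male lungs in each of 6 groups. One group stayed on doxycycline and another lost it at day 94, both without a vector. The other groups received the adeno-associated viral vector AAV-hSPB, or its variant AAV-hSPBTLR9i, through the trachea at day 0, lost doxycycline at day 7, and were either left with this single dose or given the same vector again at day 90. In the second experiment 9 lungs were taken 3 h after either vector or after PBS, with 2 female lungs and 1 male lung in each group, and the labels do not give their doxycycline feed. Nor do they state that every sample is a separate animal, and p-values here describe the spread among lung samples, which may be technical in part.

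Guanylate-binding proteins are large GTPases that interferons induce in many cell types, macrophages and epithelial and endothelial cells among them. They assemble on the membranes of bacteria and of the vacuoles that hold intracellular pathogens, recruit further defence proteins there and promote the inflammasome response to bacterial products in the cytosol. Interferon-gamma acts on their genes through gamma-activated sites (GAS) and through Irf1, which binds interferon-stimulated response elements (ISRE), and the type I interferons act on the ISRE through a complex that holds Stat2 and Irf9.

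The 3 genes lie in 1 cluster on the plus strand of mouse chromosome 3, where Gbp5, Gbp7, Gbp3, Gbp2b and Gbp2 follow each other within 141 kb in the RefSeq annotation of GRCm38.p6. Gbp5 spans chr3:142496934-142522344, Gbp3 spans chr3:142560016-142573213 and Gbp2 spans chr3:142620663-142638008. Gbp7, Gbp2b and the other listed family members (8 genes in all) were not analysed here, nor were the 8 listed immunity-related GTPases, a neighbouring family of interferon-induced GTPases. The bases before the first listed transcript start of each gene are printed because all 3 genes rose after the repeat doses and because both kinds of interferon site are short enough to be searched for. They come from RefSeq (GRCm38.p6), read 5′ to 3′ on the plus strand, and each stops before the first base of its gene. For Gbp3 that base lies before the first listed transcript start, at position 142560044, from which its matches are counted, so 222 of the 250 bases are printed. Capitals mark matches to the ISRE pattern (GAAA, any 2 bases and GAAA again), searched on both strands and found here on the minus strand only, and to the GAS letters TTCNNNGAA, which read the same on both strands.
Gbp5, chr3:142496684-142496933: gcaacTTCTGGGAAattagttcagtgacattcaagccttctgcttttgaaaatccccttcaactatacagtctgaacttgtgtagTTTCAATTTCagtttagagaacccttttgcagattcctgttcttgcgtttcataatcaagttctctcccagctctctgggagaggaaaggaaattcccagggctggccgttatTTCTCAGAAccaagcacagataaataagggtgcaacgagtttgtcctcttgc
Gbp3, chr3:142559794-142560015: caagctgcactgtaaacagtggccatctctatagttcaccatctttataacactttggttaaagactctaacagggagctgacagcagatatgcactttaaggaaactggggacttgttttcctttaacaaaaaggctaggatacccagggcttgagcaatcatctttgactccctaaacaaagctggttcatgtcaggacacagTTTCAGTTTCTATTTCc
Gbp2, chr3:142620413-142620662: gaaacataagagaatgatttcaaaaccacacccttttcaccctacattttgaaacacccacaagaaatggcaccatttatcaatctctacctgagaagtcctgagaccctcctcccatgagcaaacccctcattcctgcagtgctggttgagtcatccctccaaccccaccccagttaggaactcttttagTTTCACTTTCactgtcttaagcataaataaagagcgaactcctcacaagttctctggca
Within 250 bases before the transcript start, Gbp2 had an ISRE match 59 to 50 bases before it and no GAS match. Gbp3 had 2 ISRE matches that overlap each other, 45 to 36 and 39 to 30 bases before its first start, and no GAS match, and the window of its second start held neither. Gbp5 had an ISRE match 165 to 156 bases before the start and 2 GAS matches, at 245 to 237 and 52 to 44 bases. Of 32851 RefSeq promoter windows of the same length, 2.98% held an ISRE match, 7.02% a GAS match and 0.332% both. Among the 721 windows of 593 panel genes the shares were 6.38%, 9.71% and 1.25%. A match describes these letters only, and binding was not measured.

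The counts recovered over all genes came to between 597788 and 1131011 per lung at day 97 and between 1156612 and 1710291 at 3 h, and 65 to 117 and 36 to 69 genes had under 20 counts. Gbp2 had 239 to 996 counts per lung at day 97, Gbp3 79 to 506 and Gbp5 184 to 1252. All 3 genes were above the background of the control probes in each of the 24 lungs, at no less than 10.7, 3.55 and 8.27 times that background. At 3 h the lowest count of any of them in a lung was 128 and the highest 1104. On doxycycline replicate 1 stood apart by its liver transcripts (summed log2 level of Serpina1a and H2-Q10 15.48, group low 9.07), and AAV-hSPB repeat replicate 2 by its correlation with its group, 0.944 to 0.953 across genes, so results at day 97 are also given without these lungs where they differ in a call. Off doxycycline replicates 2 and 4 had a lower lowest correlation within their group, 0.932, but reached 0.977 and 0.986 with another lung of it. The summed log2 level of neutrophil markers ran from 11.37 to 15.27 in that group. The on- and off-doxycycline lungs and those of a single AAV-hSPB dose carry sample numbers 1 to 12 and the other day 97 lungs 13 to 24. Positive control probes averaged 543 to 785 counts in the former and 667 to 1067 in the latter. The labels name no runs, and this numbering cannot be told apart from the groups that it separates. Each comparison in which a GBP gene was called crosses this split, and none was called between day 97 groups on the same side. AAV-hSPBTLR9i single against on doxycycline and against AAV-hSPB single cross it too, with no GBP gene called. In whole lung, more cells that express a gene and more RNA per cell cannot be told apart.

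**Figure D1:**
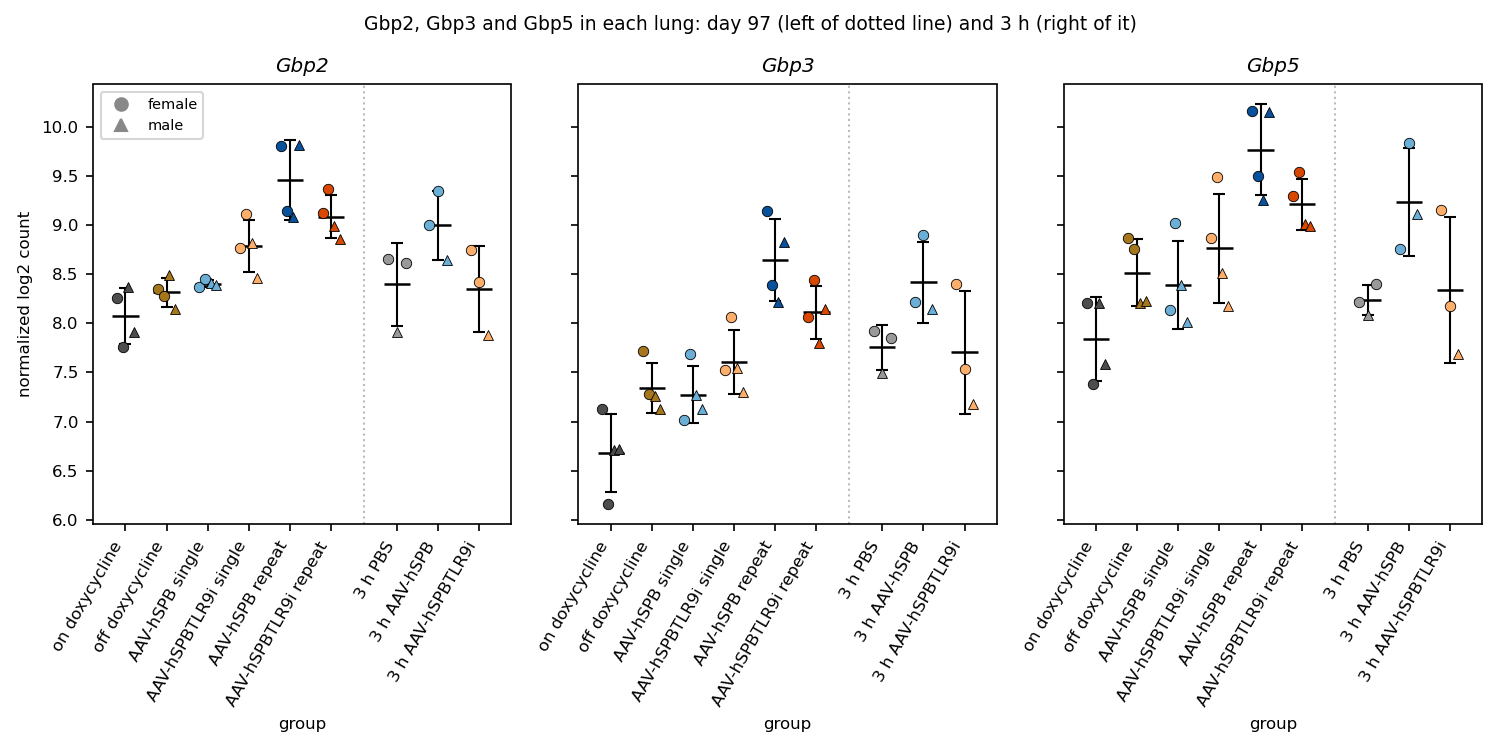
Normalized log2 count of Gbp2, Gbp3 and Gbp5 (vertical axis) in each of the 33 lungs by group (horizontal axis), with the day 97 groups left and the 3 h groups right of the dotted line. Circles are female and triangles male lungs, horizontal bars are group means and whiskers 1 SD (n = 4 at day 97, n = 3 at 3 h). Each gene is lowest on doxycycline and highest after the repeat dose of AAV-hSPB among the day 97 groups. The 2 experiments were normalized separately.

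The largest levels of all 3 genes followed a second dose of AAV-hSPB. Against lungs that stayed on doxycycline, Gbp3 rose 3.91-fold, Gbp5 3.79-fold and Gbp2 2.62-fold 7 days after that dose, and each of the 4 lungs lay above each of the 4 controls. After a second dose of AAV-hSPBTLR9i the same genes rose 2.70-, 2.58- and 2.01-fold. A single dose of either vector or loss of doxycycline gave smaller differences that did not pass the test.

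Gbp2, whose protein coats the vacuoles of Toxoplasma and of bacteria in mouse cells, had log2 levels of 8.25, 7.75, 8.37 and 7.91 in the 4 on-doxycycline lungs and of 9.81, 9.14, 9.08 and 9.82 after the repeat dose of AAV-hSPB. The groups did not overlap, and 2 of the repeat-dose lungs lay about 0.7 above the other 2. The means were 8.07 ± 0.29 and 9.46 ± 0.41 (SD, n = 4 each), and the difference was 1.39 ± 0.18 log2 units (SE; 95% confidence interval 1.02 to 1.76, limma adjusted p = 1.5e-05). After the repeat dose of AAV-hSPBTLR9i the lungs had 9.13, 9.37, 8.99 and 8.85, again all above the controls. This difference was 1.01 ± 0.18 (0.64 to 1.38, limma adjusted p = 0.000689).

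Gbp3 stood at 7.13, 6.16, 6.71 and 6.72 on doxycycline and at 9.15, 8.39, 8.22 and 8.83 after the repeat dose of AAV-hSPB. Every repeat-dose lung was more than 1 log2 unit above the highest control. The difference was 1.97 ± 0.23 (1.49 to 2.44, limma adjusted p = 5.45e-06), which ranked 5 of 773 genes by p. With the repeat dose of AAV-hSPBTLR9i the values were 8.06, 8.44, 7.80 and 8.15, none of them as low as a control. The difference was 1.43 ± 0.23 (0.95 to 1.91, limma adjusted p = 0.000449).

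Gbp5, which promotes assembly of the NLRP3 inflammasome in macrophages, stood at 8.21, 7.38, 8.20 and 7.59 on doxycycline and at 10.17, 9.50, 9.25 and 10.15 after the repeat dose of AAV-hSPB. As for Gbp2, replicates 1 and 4 were the high lungs of the repeat group and replicates 2 and 3 the low ones. The difference was 1.92 ± 0.29 (1.32 to 2.53, limma adjusted p = 9.25e-05). In the AAV-hSPBTLR9i repeat group the lungs had 9.30, 9.54, 9.01 and 8.99, all above the controls. The difference was 1.37 ± 0.29 (0.76 to 1.97, limma adjusted p = 0.00367).

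All 3 genes were thus called higher in both repeat-dose groups, where 23.3% (AAV-hSPB) and 11% (AAV-hSPBTLR9i) of the 773 genes were called higher. In both groups the 3 genes also lay wholly above the controls, as did 18.2% and 18.1% of the panel. The panel's split of calls was 180 higher and 23 lower for AAV-hSPB, and moved to 98 and 119 on a scaling to the median gene of each lung and to 114 and 73 with all 12 reference genes. For AAV-hSPBTLR9i it was 85 and 4, and moved to 53 and 37 and to 61 and 18. The 3 genes were called higher under each of these scalings. The median gene of the panel lay at 0.15 and 0.11 in the 2 comparisons, and at -0.07 and -0.10 with the median-gene scaling. Both comparisons use the same on-doxycycline lungs.

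**Figure D2:**
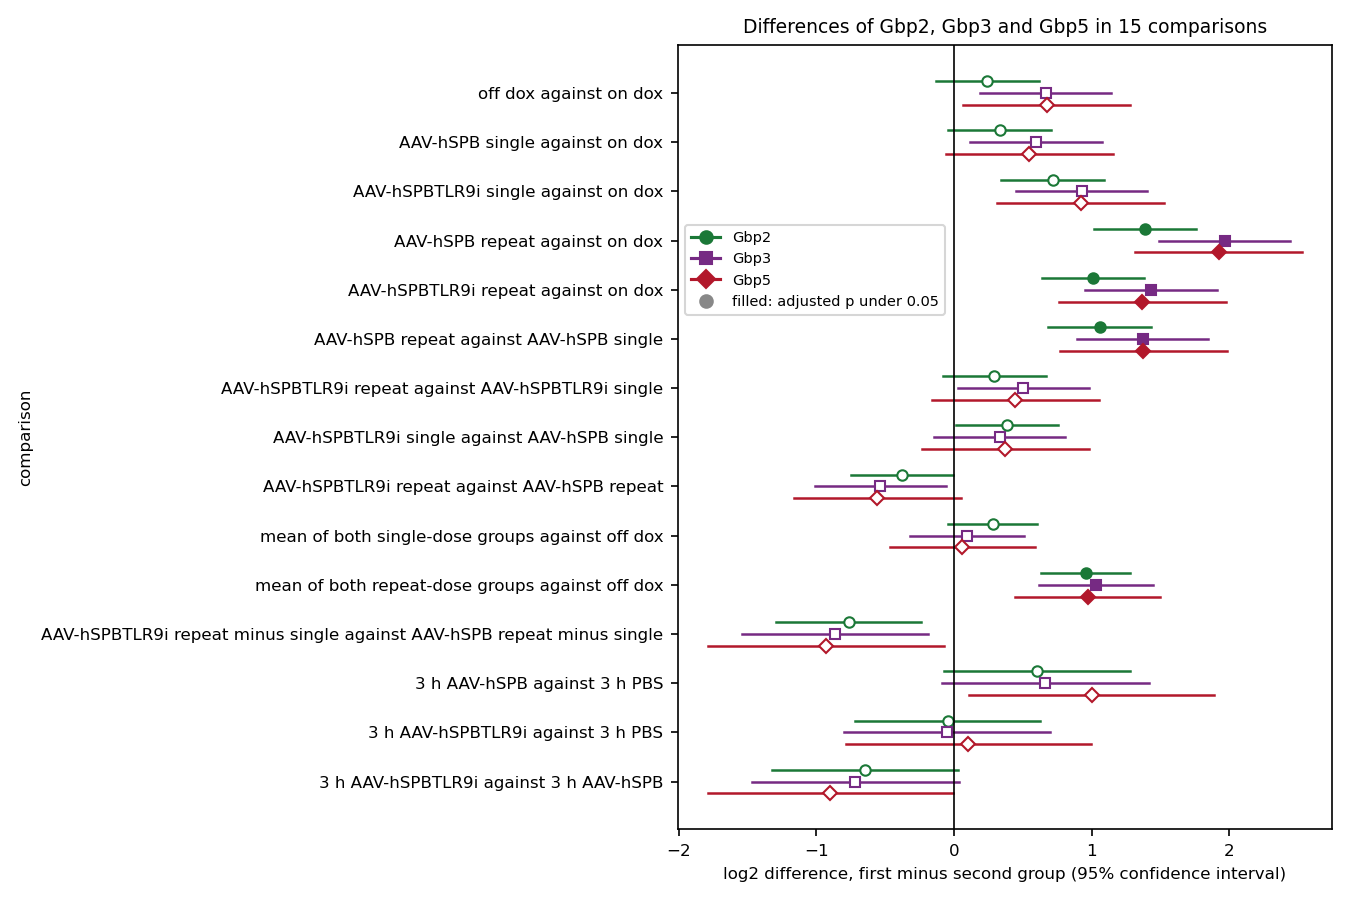
Log2 difference of Gbp2, Gbp3 and Gbp5 (horizontal axis, first group minus second) in the 15 comparisons (vertical axis), with 95% confidence intervals from limma. Filled symbols passed an adjusted p of 0.05 over 773 genes, and these are the comparisons of the repeat-dose groups with on doxycycline, of AAV-hSPB repeat with single, and of both repeat-dose groups with off doxycycline. Comparisons that share a group are not independent.

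Off doxycycline, 3 days after the transgene's inducer was withdrawn, Gbp2 stood at 8.35, 8.28, 8.49 and 8.14, Gbp3 at 7.71, 7.28, 7.26 and 7.13, and Gbp5 at 8.87, 8.76, 8.21 and 8.23. The lowest Gbp3 and Gbp5 lungs equalled the highest on-doxycycline lungs to 2 decimals and lay just above them beyond that, and the Gbp2 lungs overlapped. The differences from on doxycycline were 0.67 ± 0.23 for Gbp3, 0.67 ± 0.29 for Gbp5 and 0.24 ± 0.18 for Gbp2 (limma adjusted p = 0.284, 0.371 and 0.522). None of the 3 genes passed, and the panel had 0 calls with limma and 0 with voom, with 96 genes at an unadjusted p under 0.05. Here 2.46% of the panel lay wholly above the controls.

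A single dose was followed for the whole 97 days. With AAV-hSPB, Gbp2 stood at 8.37, 8.45, 8.41 and 8.39, the narrowest spread of its 6 day 97 groups (SD 0.03). Gbp3 stood at 7.01, 7.69, 7.27 and 7.13 and Gbp5 at 8.13, 9.02, 8.39 and 8.02, with replicate 2 highest for both and all 3 genes overlapping the controls. The differences from on doxycycline were 0.33 ± 0.18 for Gbp2, 0.60 ± 0.23 for Gbp3 and 0.55 ± 0.29 for Gbp5 (limma adjusted p = 0.543, 0.374 and 0.537). Of the panel, 0 genes passed with limma and 3 with voom, and 82 had an unadjusted p under 0.05.

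With a single dose of AAV-hSPBTLR9i, Gbp2 stood at 8.77, 9.11, 8.82 and 8.46, Gbp3 at 7.52, 8.07, 7.54 and 7.30, and Gbp5 at 8.87, 9.49, 8.52 and 8.18. All Gbp2 and Gbp3 lungs lay above the on-doxycycline lungs, as did 8.54% of the panel, and the lowest Gbp5 lung overlapped them. The differences were 0.72 ± 0.18 for Gbp2, 0.93 ± 0.23 for Gbp3 and 0.92 ± 0.29 for Gbp5 (limma adjusted p = 0.0727, 0.0727 and 0.2). None of the 3 genes passed, against 0.259% of the panel called higher and 83 genes at an unadjusted p under 0.05, and voom called none of the 3 either. Gbp2 passed without on doxycycline replicate 3 (0.82, limma adjusted p = 0.0302), and Gbp3 passed without both on doxycycline replicate 1 and AAV-hSPB repeat replicate 2 (1.08, limma adjusted p = 0.0345).

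The second dose was set against the single dose of the same vector. For AAV-hSPB the repeat-dose lungs lay wholly above the single-dose lungs for each of the 3 genes, which held for 10.3% of the panel. Gbp2 was higher by 1.06 ± 0.18 (2.08-fold, limma adjusted p = 0.000926), Gbp3 by 1.37 ± 0.23 (2.59-fold, 0.000926) and Gbp5 by 1.38 ± 0.29 (2.60-fold, 0.007). All 3 were called higher, where 6.73% of the panel was. The panel's calls were 52 higher and 4 lower, 41 and 5 on the median-gene scaling and 27 and 21 with all 12 reference genes. With only the compared groups in the fit, Gbp5 kept its difference of 1.38 but had a limma adjusted p of 0.0529. The single-dose lungs carry sample numbers 1 to 12 with the controls, and the repeat-dose lungs 13 to 24. Second dose and numbering therefore cannot be told apart in this comparison.

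For AAV-hSPBTLR9i the repeat- and single-dose lungs overlapped for each gene. Gbp2 differed by 0.29 ± 0.18 (-0.08 to 0.67, limma adjusted p = 0.842), Gbp3 by 0.50 ± 0.23 (0.03 to 0.98, 0.563) and Gbp5 by 0.45 ± 0.29 (-0.16 to 1.05, 0.849). None of the 3 passed, where 0.388% of the panel was called higher, and voom called none of them, with 60 panel genes at an unadjusted p under 0.05 by limma. That 1 vector passed and the other did not does not show that they differ. The difference between the steps from single to repeat dose was tested as an interaction and was -0.76 ± 0.25 for Gbp2, -0.87 ± 0.32 for Gbp3 and -0.93 ± 0.41 for Gbp5. Its unadjusted p was 0.0066, 0.015 and 0.035, and its limma adjusted p 0.995 for each. No panel gene passed by limma or voom, and 24 had an unadjusted p under 0.05. Both AAV-hSPBTLR9i groups carry sample numbers 13 to 24, so the split in numbering falls on the AAV-hSPB step alone. The interaction cannot be told apart from it.

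Between the vectors at the same number of doses, the differences after the repeat dose (AAV-hSPBTLR9i minus AAV-hSPB) were -0.38 ± 0.18 for Gbp2, -0.53 ± 0.23 for Gbp3 and -0.56 ± 0.29 for Gbp5. The lungs overlapped, and no difference passed (limma adjusted p = 0.723, 0.723 and 0.757). The intervals reached -0.75, -1.01 and -1.16, so differences of this size are not excluded by these lungs. After the single dose the sign was the opposite, with 0.39 ± 0.18, 0.33 ± 0.23 and 0.37 ± 0.29 (limma adjusted p = 1 for each). With 1 lung left out at a time they ran from 0.28 to 0.50, from 0.18 to 0.47 and from 0.13 to 0.58, each lowest without AAV-hSPBTLR9i single replicate 2. All Gbp2 lungs of the single AAV-hSPBTLR9i dose lay above those of the single AAV-hSPB dose, as held for 1.55% of the panel. Neither comparison had a panel gene that passed with limma or voom, and 51 and 8 genes had an unadjusted p under 0.05.

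Set against off doxycycline, the control without the transgene's inducer, the mean of both repeat-dose groups was higher by 0.96 ± 0.15 for Gbp2, 1.03 ± 0.20 for Gbp3 and 0.97 ± 0.25 for Gbp5 (limma adjusted p = 0.000215, 0.000826 and 0.00682). All 3 genes passed, where 23.4% of the panel was called higher. The panel's split was 181 higher and 40 lower, 111 and 105 on the median-gene scaling and 128 and 69 with all 12 reference genes. The mean of both single-dose groups differed from off doxycycline by 0.28 ± 0.15, 0.10 ± 0.20 and 0.06 ± 0.25 (limma adjusted p = 0.267, 0.816 and 0.902), and none of the 3 passed with limma or voom, where 0.388% of the panel was called higher and 183 genes had an unadjusted p under 0.05.

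The order of the group means at day 97 was the same at the top for the 3 genes, with AAV-hSPB repeat, AAV-hSPBTLR9i repeat and AAV-hSPBTLR9i single, and on doxycycline was last. For Gbp2 the means were 9.46, 9.08, 8.79, 8.40 (AAV-hSPB single), 8.32 (off doxycycline) and 8.07. For Gbp3 they were 8.65, 8.11 and 7.61, then 7.35 off doxycycline, 7.28 after the single AAV-hSPB dose and 6.68 on doxycycline. For Gbp5 they were 9.77, 9.21, 8.76, 8.52 (off doxycycline), 8.39 (AAV-hSPB single) and 7.84. No neighbours in these orders that were compared passed the test, and neighbours that were not compared with each other overlapped.

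Against on doxycycline the differences of Gbp3 and Gbp5 were larger than that of Gbp2. Against off doxycycline the repeat-dose differences were close to each other (0.96, 1.03 and 0.97 for Gbp2, Gbp3 and Gbp5), and the single-dose difference was largest for Gbp2. Measured from its own on-doxycycline mean, Gbp3 exceeded Gbp2 in all 4 lungs of each other day 97 group, by 0.58 ± 0.14 after the repeat dose of AAV-hSPB and by 0.42 ± 0.21 after that of AAV-hSPBTLR9i (SD, n = 4). Gbp5 exceeded Gbp2 in all repeat-dose lungs, by 0.53 ± 0.09 and 0.36 ± 0.07, but not in every lung of the other groups. Gbp5 and Gbp3 differed from each other by -0.04 ± 0.14 and -0.07 ± 0.18. These are differences of differences against shared control lungs and were not tested.

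By the root mean square difference of log2 levels over the 24 day 97 lungs, each gene centred on its own mean, the nearest of the 772 other genes to Gbp3 was Gbp5 (0.188), and the same held in reverse. Next for Gbp3 were Tap1 (0.23), which carries peptides to MHC class I, Gbp2 (0.26) and Psmb9 (0.28), a subunit of the immunoproteasome. For Gbp5 they were Tap1 (0.25), Gbp2 (0.30), Psmb9 (0.32) and Nlrc5 (0.32), the activator of MHC class I genes. Gbp2 was nearest to Psmb9 (0.15), and its 5 nearest genes also held Tap1 (0.22), H2-DMa (0.25), which loads MHC class II, and Cd274 (0.25), the ligand of the receptor PD-1. The median gene lay at 0.56, 0.71 and 0.74 from Gbp2, Gbp3 and Gbp5. Once each gene was centred within its group, so that group differences no longer counted, Gbp5 was still the nearest gene to Gbp3 (0.186) and Psmb9 lay at 0.142 from Gbp2. There Gbp3 was at rank 12 (0.187) and Gbp5 at rank 126 (0.239) of the 772 genes by nearness to Gbp2. The latter distance was larger than the spread of Gbp2 itself (0.220). In reverse, Gbp2 was at rank 2 for Gbp3 and at rank 5 for Gbp5, whose own spread was wider (0.370). The measure also counts such a difference in spread. The 3 genes lay on the same side of their group means in 16 of the 24 lungs. All genes of a lung share its RNA and its scaling.

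**Figure D3:**
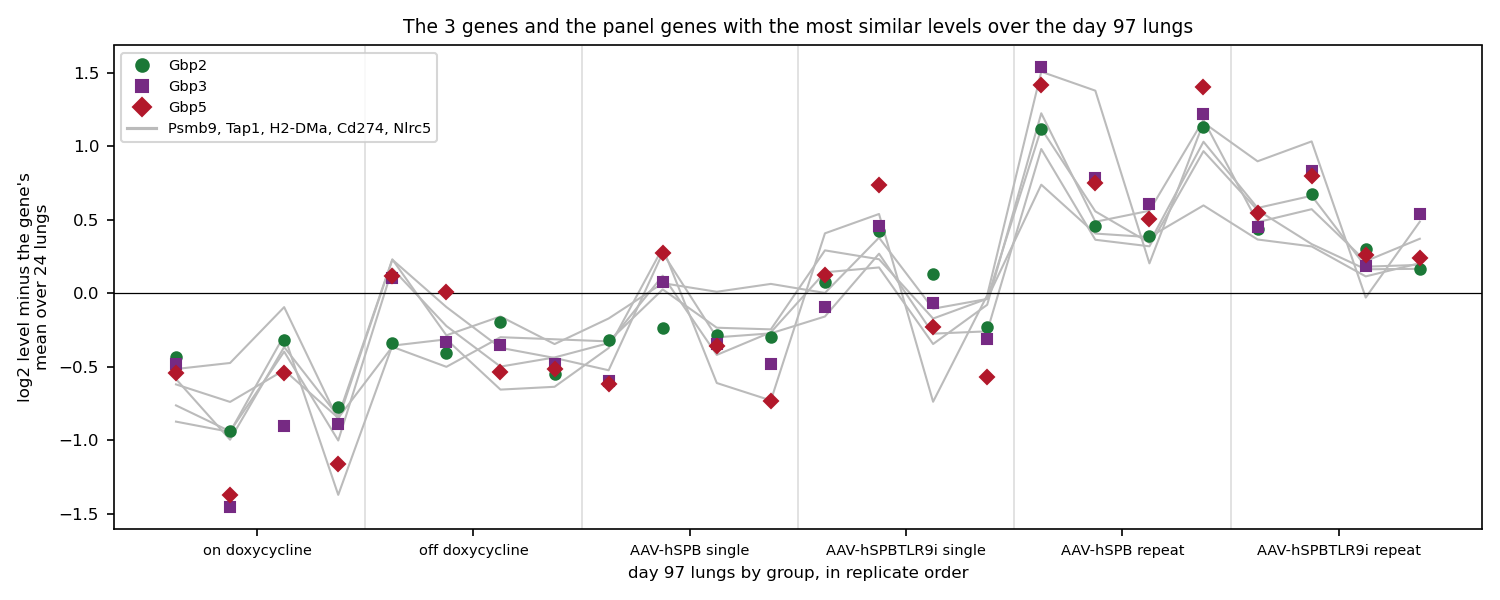
Log2 level minus the gene's mean over 24 lungs (vertical axis) in each day 97 lung, ordered by group and replicate (horizontal axis). Symbols are Gbp2, Gbp3 and Gbp5, and grey lines are Psmb9, Tap1, H2-DMa, Cd274 and Nlrc5, each among the 5 genes nearest to one of them. The symbols and lines lie below 0 in all on-doxycycline lungs and above 0 in all repeat-dose lungs except for Nlrc5 in AAV-hSPBTLR9i repeat replicate 3 (-0.03), with replicates 1 and 4 of the AAV-hSPB repeat highest for the 3 genes.

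Of the interferon-gamma pathway, 9 of 11 listed genes were measured. For the lists and markers, rose and fell are used only of genes called higher and lower. In the AAV-hSPB repeat group 1 of these rose against on doxycycline and 0 fell, beside 23.3% of the panel called higher. The list median was 0.20 beside 0.15 for the panel, and 7 of the 9 differences were above 0. The gene that rose was Socs1, the feedback inhibitor of the receptor kinases, by 0.75 ± 0.21. Its counts were low, 21 to 24 on doxycycline with 1 of 4 lungs not above background, and 27 to 38 after this repeat dose. The receptor subunits Ifngr1 and Ifngr2 differed by -0.19 ± 0.10 and 0.01 ± 0.07, the kinase Jak2 by 0.09 ± 0.13 and Irf1 by 0.34 ± 0.18, and none of these passed. Ifng, the cytokine itself, was not above background in 19 of 24 lungs, with 3 of 4 AAV-hSPB repeat lungs and 2 of 4 AAV-hSPBTLR9i repeat lungs above it. After the repeat dose of AAV-hSPBTLR9i the list median was 0.14 beside 0.11 for the panel, and 0 of the 9 genes were called. The mean log2 level of Socs1 was 4.66 there and 4.49 on doxycycline.

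Of 14 listed interferon-gamma targets other than the GBP genes 12 were measured, and after the repeat dose of AAV-hSPB 11 rose against on doxycycline and 0 fell (median 1.54). Cxcl9, a chemokine for activated T cells, had a difference of 4.21 ± 0.67 with 2 of the 8 lungs not above background, and Cxcl10, its relative, one of 3.00 ± 0.44. Tap1 rose by 1.64 ± 0.19, Nlrc5 by 1.93 ± 0.32 and Psmb9 by 1.44 ± 0.16. In the AAV-hSPBTLR9i repeat group 9 of the 12 rose and 0 fell (median 1.09). The shares of the panel called higher in these 2 comparisons were 23.3% and 11%. The differences of the 3 GBP genes, 1.39 to 1.97 and 1.01 to 1.43, lay within the range of these targets, 0.57 to 4.21 and -0.06 to 3.91. They also lay within the range of the inflammasome genes given below, -0.77 to 2.39 and -0.39 to 1.82. That of Gbp2 lay within the range of the type I interferon targets too, which reached 1.61 and 1.22. Which signal raised the GBP genes was not tested.

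Of the type I interferon pathway 10 of 12 listed genes were measured, and 5 rose after the repeat dose of AAV-hSPB against on doxycycline (median 0.60), among them Stat2 by 0.66 ± 0.12, Irf9 by 0.68 ± 0.16 and Irf7 by 0.72 ± 0.21. All 24 lungs had Ifnb1 at or below background. Of 19 listed type I targets 15 were measured and 6 rose (median 0.67), among them Mx1 by 1.53 ± 0.30 and Isg15 by 1.14 ± 0.26, while Ifit1 stood at -0.07 ± 0.22. After the repeat dose of AAV-hSPBTLR9i 2 of the 10 pathway genes and 1 of the 15 targets rose, with medians of 0.37 and 0.39. The calls in the pathway were Stat2 (0.42 ± 0.12) and Ifna4, named after its values were seen, which was not above background in any of the 8 lungs. No gene of either list was called lower in these comparisons. Of the 15 targets, 13 and 11 had differences above 0, and the lowest was -0.44 in both comparisons. Of the panel, 23.3% and 11% were called higher, the latter a larger share than 1 of 15 targets.

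GBPs act with inflammasome genes, of which 10 of 12 listed were measured. In the AAV-hSPB repeat group 4 of these rose and 1 fell against on doxycycline (median 0.35). Zbp1, a sensor of viral nucleic acid, rose by 2.39 ± 0.27, Pycard, the adaptor that joins sensor and caspase, by 1.34 ± 0.26, Aim2, a sensor of DNA, by 1.07 ± 0.19 and Casp1 by 0.82 ± 0.19. Casp4, the caspase that binds bacterial lipopolysaccharide, differed by 0.47 ± 0.21 and did not pass, and Il18, named after its values were seen, fell by 0.77. After the repeat dose of AAV-hSPBTLR9i 4 rose and 0 fell (median 0.43), namely Zbp1 by 1.82 ± 0.27, Pycard by 0.97 ± 0.26, Aim2 by 0.88 ± 0.19 and Casp1 by 0.85 ± 0.19. Beside these counts, 23.3% and 11% of the panel were called higher.

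**Figure D4:**
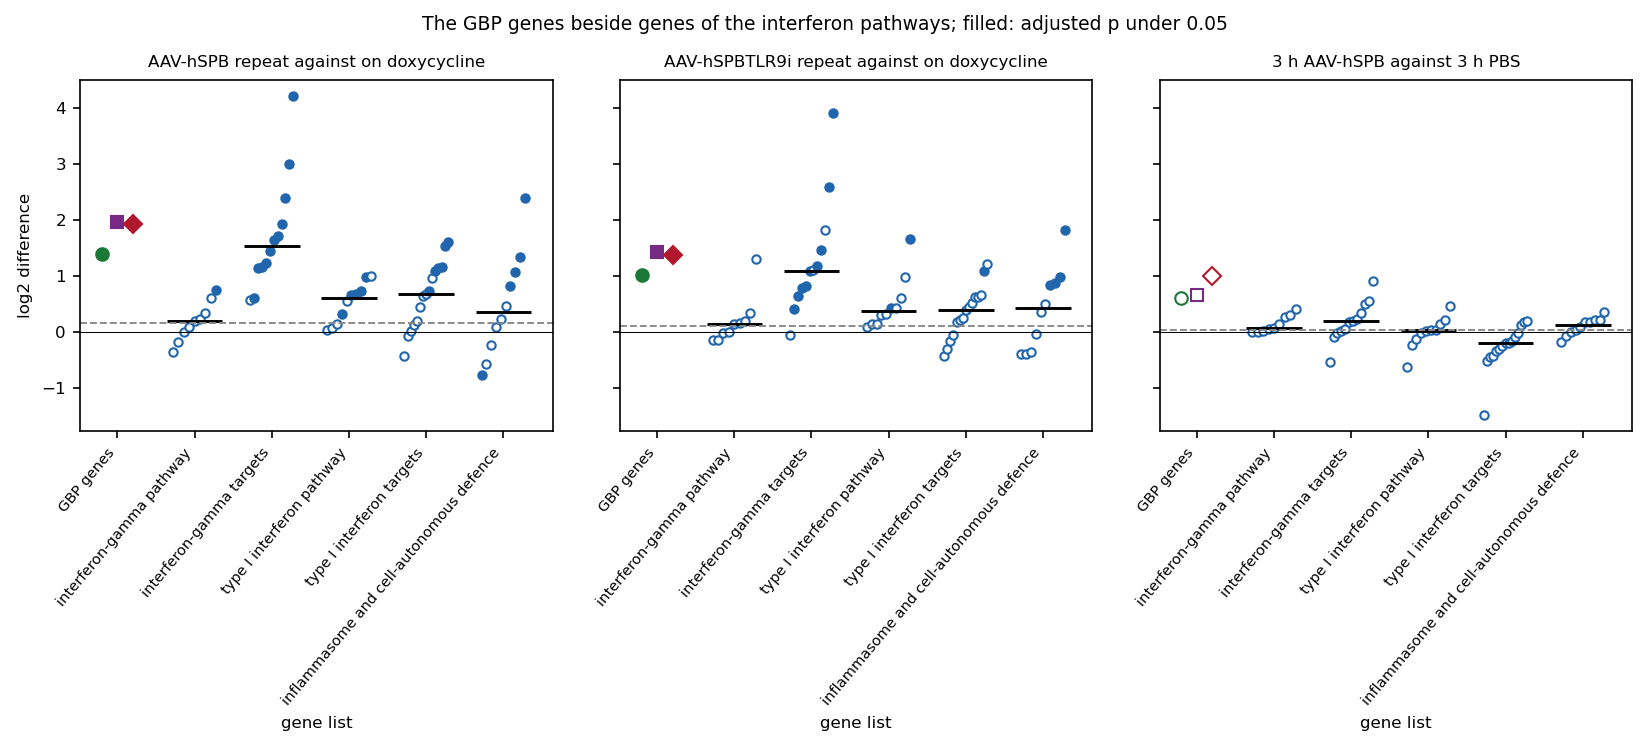
Log2 difference (vertical axis) of Gbp2 (circle), Gbp3 (square) and Gbp5 (diamond) and of each measured gene of 5 lists (horizontal axis) in 3 comparisons, with filled symbols for an adjusted p under 0.05, black bars for list medians and a dashed line for the median of 773 genes. After a repeat dose the 3 genes lie within the range of the interferon-gamma targets, whose medians are 1.54 and 1.09. They also lie within that of the inflammasome genes, -0.77 to 2.39 and -0.39 to 1.82. At 3 h no gene shown passes.

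Markers of B cells were called higher in the same groups, beyond the panel's shares of 23.3% and 11%. Macrophage markers were also called beyond the panel's share after the repeat dose of AAV-hSPB (3 of 6). The other immune markers were called in shares nearer to the panel's or not at all. Of the listed markers, 3 of 4 B cell, 3 of 6 macrophage, 2 of 7 T cell, 0 of 5 NK cell and 0 of 3 neutrophil genes rose after the repeat dose of AAV-hSPB against on doxycycline, and 4, 1, 1, 0 and 0 after that of AAV-hSPBTLR9i. B cell markers were also higher after the single doses of AAV-hSPB and AAV-hSPBTLR9i, by medians of 0.91 and 0.90 against on doxycycline, with 0 calls. After the repeat doses these medians were 1.28 and 1.31. The log2 of the summed B cell level ran from 8.83 to 10.51 on doxycycline, from 10.13 to 11.46 after the repeat dose of AAV-hSPB and from 10.87 to 11.17 after that of AAV-hSPBTLR9i. For macrophages it ran from 10.79 to 11.48, from 11.20 to 11.74 and from 11.20 to 11.80, and for T cells from 9.42 to 10.15, from 9.73 to 10.88 and from 10.03 to 10.66. For NK cells it ran from 9.31 to 10.03, from 9.72 to 10.76 and from 9.56 to 10.11, and for neutrophils from 10.89 to 12.75, from 11.47 to 12.57 and from 11.14 to 12.81. Of the defining markers Cd8a was not above background in 10 of 24 lungs and Marco in 1, and the B and NK cell markers were above it in all. Against the single AAV-hSPB dose, where the 3 GBP genes also rose, none of these markers was called, beside 6.73% of the panel called higher. Their median differences there were 0.38 for T cells, 0.30 for B cells, 0.27 for macrophages, -0.02 for NK cells and -0.14 for neutrophils. Against off doxycycline the mean of both repeat-dose groups had 6 of 7 T cell, 4 of 4 B cell, 1 of 6 macrophage, 0 of 5 NK cell and 0 of 3 neutrophil markers called higher, and the only measured dendritic cell marker (1 of 1), beside 23.4% of the panel. The part of these cells in the GBP levels was not tested.

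Of 8 listed lung epithelial markers 2 were measured. Cdh1, which holds epithelial cells together, was above background in all 24 day 97 lungs and Itln1, a lectin of secretory cells, in all but 1. Itln1 was called higher in both repeat-dose groups against on doxycycline and after the repeat against the single dose of AAV-hSPB, with log2 levels of 3.94 to 6.66 on doxycycline, 4.73 to 6.18 after the single dose of AAV-hSPB, 8.18 to 10.29 after its repeat dose and 8.17 to 11.08 after that of AAV-hSPBTLR9i. Cdh1 was not called in these comparisons. Against off doxycycline, the mean of both repeat-dose groups had Itln1 called higher and Cdh1 called lower. The mean log2 of the summed level of both markers was 11.74 on doxycycline, 11.89 after the repeat dose of AAV-hSPB and 11.83 after that of AAV-hSPBTLR9i. The part of either marker in the GBP levels was not tested. Of 7 endothelial markers Pecam1 and Vwf were measured, both above background throughout. The log2 of their summed level ran from 13.30 to 13.50 on doxycycline, from 12.04 to 13.50 after the repeat dose of AAV-hSPB and from 13.05 to 13.39 after that of AAV-hSPBTLR9i, so that the lowest AAV-hSPB repeat lung lay more than 1 log2 unit below every control. Neither marker was called in these comparisons, and their part in the GBP levels was not tested. The summed level of each list is thus a narrow check of the tissue, and SP-B itself was not analysed here.

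At 3 h after the dose the question was how the first contact with a vector acts. After PBS Gbp2 stood at 8.66, 7.91 and 8.62, Gbp3 at 7.93, 7.50 and 7.85, and Gbp5 at 8.22, 8.09 and 8.40. After AAV-hSPB they stood at 9.01, 9.35 and 8.64, at 8.22, 8.90 and 8.14, and at 8.76, 9.84 and 9.12. All Gbp3 and Gbp5 lungs lay above PBS, as held for 5.05% of the panel, and Gbp2 overlapped.

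The differences between AAV-hSPB and PBS at 3 h were 1.00 ± 0.39 for Gbp5 (0.11 to 1.89), 0.66 ± 0.33 for Gbp3 and 0.60 ± 0.29 for Gbp2 (limma adjusted p = 0.996 for each). None passed, and neither limma nor voom called a panel gene, with 17 at an unadjusted p under 0.05. By size alone Gbp5 ranked 2 of 773 genes, Gbp3 10 and Gbp2 13. Without AAV-hSPB replicate 2, the highest lung for all 3 genes, they were 0.70, 0.43 and 0.43, and without PBS replicate 2, the lowest PBS lung, that of Gbp2 was 0.36.

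After AAV-hSPBTLR9i at 3 h Gbp2 stood at 8.75, 8.42 and 7.88, Gbp3 at 8.40, 7.54 and 7.18, and Gbp5 at 9.16, 8.17 and 7.69. These values overlapped PBS for each gene and spread widely, with an SD of 0.75 for Gbp5 against 0.15 after PBS. The differences from PBS were -0.05 ± 0.29, -0.05 ± 0.33 and 0.10 ± 0.39 (limma adjusted p = 1 for each), with intervals of -0.72 to 0.63, -0.80 to 0.70 and -0.78 to 0.99. Against AAV-hSPB they were -0.65 ± 0.29 (-1.32 to 0.03), -0.72 ± 0.33 (-1.47 to 0.04) and -0.90 ± 0.39 (-1.79 to -0.01), with overlapping lungs and a limma adjusted p of 1 for each. Limma and voom called no panel gene in either comparison, and 15 and 12 genes had an unadjusted p under 0.05. Both comparisons with PBS share the PBS lungs.

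Other interferon genes at 3 h gave 0 calls as well. Against PBS, the AAV-hSPB lungs had list medians of 0.19 for interferon-gamma targets, 0.08 for the interferon-gamma pathway, -0.19 for type I targets and 0.13 for inflammasome genes, beside 0.03 for the panel. Irf1 differed by 0.26 ± 0.15. Over the 9 lungs Gbp2 and Gbp3 were each other's nearest gene (0.183), and Gbp5 was nearest to Gbp3 (0.203). With each gene centred within its group, Gbp3 remained the nearest gene to Gbp5 (0.149), but it was at rank 17 for Gbp2 (0.180), Gbp2 was at rank 6 for Gbp3 and Gbp5 at rank 258 for Gbp2 (0.302). Before this centring Ido1, which breaks down tryptophan, came next for Gbp5 (0.33).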

How the data were processed

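Normalized log2 counts of 773 genes were deposited by the authors in a table for the 24 day 97 lungs and another for the 9 lungs at 3 h, each with a linear block equal to the log2 block raised back. From the values, the day 97 table was scaled to 6 reference genes, and the scaling of the 3 h table could not be traced. For day 97 the authors' deposited series matrix holds linear signal values, scaled to all 12 reference genes. The software and background treatment are not given in the sources used here, and 9 matrix columns (3 h) were not used, since their rows stood under other genes' identifiers. Whole counts per lung were recovered as multiples of a step (all values whole within 0.1), and background was the mean plus 2 SD of the 8 dimmest control probes.

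All groups of a table were fitted by limma 3.58.1 (R 4.3.3; lmFit, contrasts.fit, eBayes) without a filter or covariate. The p-values were adjusted over the 773 genes by Benjamini and Hochberg, with a threshold of 0.05. Values with ± are standard errors unless SD is named. On simulated data with 200 of 773 genes changed, changes of 0.5, 1 and 2 log2 units were searched for. They were found in 45.2%, 80.6% and 95.5% of cases for AAV-hSPB repeat against on doxycycline (3.79% of calls false). For AAV-hSPB against PBS at 3 h they were found in 45.6%, 80.0% and 97.1% (4.06%). The simulated noise was independent between genes. The adjusted threshold is stricter where fewer genes change, and the real 3 h comparison had 0 calls. The simulated shares therefore do not give what would be found in the real 3 h lungs. Motifs were searched and figures drawn with Python 3.11.15, pandas 2.3.3 and matplotlib 3.10.9.

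The members, lists and markers were chosen with earlier results of these data known. The naming rule took the 3 GBP genes, a set list of interferon and inflammasome genes, the 5 nearest genes to each member and the markers, and 1 gene that it took is not reported here and was left out of the lists and figures. Alternatives were other scalings, the matrix values, no dim genes, sex, a trended prior, the compared groups alone, each lung left out and a pair of lungs left out. The planned count tests were replaced by limma voom, chosen after seeing the data.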

Additional observations from a re-analysis of the deposited data

How the results depend on the processing

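The count of GBP genes called stayed within 1.5 times in all but 4 repeats under the alternatives. These 4 all concern AAV-hSPBTLR9i single against on doxycycline, where 0 genes passed. There 2 passed with the lowest 25% of genes left out, 1 with sex as a covariate, 1 without on doxycycline replicate 1 and AAV-hSPB repeat replicate 2 together, and 0 to 1 with 1 lung left out at a time. The first of these tests fewer genes, and for the others the cause was not tested.

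Of the differences of single members 749 kept their direction and their side of the threshold, 5 passed and 1 no longer passed, and 13 reversed, none of them called. For the mean of both single-dose groups against off doxycycline, Gbp5 went to -0.0446 and Gbp3 to -0.0087 with each lung scaled to its median gene, and with lungs left out Gbp5 ran from -0.0603 to 0.178. For AAV-hSPBTLR9i against PBS at 3 h, leaving out lungs moved Gbp2 from -0.29 to 0.19, Gbp3 from -0.40 to 0.21 and Gbp5 from -0.30 to 0.43. The cause was not tested.

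The number of panel genes called moved by over 1.5 times in 56 repeats and less in 200. With only the compared groups it fell to 84 for AAV-hSPB repeat against on doxycycline and from 56 to 12 against the single dose, and rose from 3 to 14 for the AAV-hSPBTLR9i doses. For AAV-hSPBTLR9i single against on doxycycline it was 2 and ran from 0 to 9, or to 11 with a lung left out. For both single-dose groups against off doxycycline it was 3, ran from 0 to 39, and from 0 to 95 with a lung left out.

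No paired analysis was possible because the labels give each sample a number of its own and no replicate number shared between groups. The planned edgeR and DESeq2 alternatives were not run. The deposited values are normalized, and the whole counts recovered from them were used with limma voom only. The 12-reference and matrix alternatives could not be had at 3 h. With 3 or 4 lungs a group, changes near 0.5 log2 units were often missed on simulated data with 200 of 773 genes changed. Where few genes change the threshold is stricter, and larger differences did not pass either. Among these were 1.00 for Gbp5 (AAV-hSPB against PBS at 3 h) and 0.93 for Gbp3 (AAV-hSPBTLR9i single against on doxycycline). A difference that did not pass is therefore not shown to be absent.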

Other observations

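Male and female lungs were compared for the 3 genes, a comparison chosen after seeing the data. At 3 h the only male lung of each group had the lowest Gbp2 and Gbp3 levels of its group. With treatment in the limma fit, the male minus female differences were -0.65 ± 0.12 for Gbp2, -0.53 ± 0.23 for Gbp3 and -0.46 ± 0.31 for Gbp5, with adjusted p of 0.0837, 0.269 and 0.466, and no panel gene passed. At day 97 the differences were -0.09 ± 0.10, -0.21 ± 0.13 and -0.37 ± 0.15 (limma adjusted p = 0.658, 0.315 and 0.155), where 21 panel genes (2.72%) passed.

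Within the AAV-hSPB repeat group, replicates 1 and 4 had Gbp5 levels of 10.17 and 10.15 and replicates 2 and 3 of 9.50 and 9.25, with Gbp2 and Gbp3 ordered alike between these pairs. The pairs each held a female and a male lung.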
